A study of Homo sapiens with 3 samples.

Results

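Fibroblasts of the day 0 library that carried the most transcripts of PAPPA, MMP1, CTSK, DPP4 and SCG5 are described here and set against the other cells of that library. Of 17504 barcodes deposited for day 0, 10601 held at least 3000 UMIs (unique molecular identifiers, which count captured RNA molecules), and 10364 of these had at most 20% of their UMIs in mitochondrial genes. The 1036 cells in the top 10% by the summed UMI share of the 5 genes are called gate members, and the remaining 9328 are the other cells. The series as a whole holds 2066111 barcodes in 3 libraries.

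The day 0 cells were BJ cells, an established line of normal human skin fibroblasts, with the genotype given as WT and the treatment field given as reprogramming. The day 3 and day 5 libraries, used here only as further readings of the same genes, carry the same genotype and treatment and are labelled FiN cells of the type induced neuron cells. Per the labels, BJ cultures in serum medium were moved to a neuronal induction medium with forskolin, which activates adenylyl cyclase, and then to a maturation medium, and forskolin was removed on day 5. The labels do not say whether the day 0 cells had met forskolin. Each day is 1 library of 1 line with no replicate, so no test was possible, no p-value is given, and every interval covers counting error only.

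Fibroblasts shape the tissue around them by secreting matrix proteins, the proteases that cut them and signals that reach other cells. PAPPA is a secreted metalloproteinase that cleaves IGFBP4 and so frees insulin-like growth factors, MMP1 is the interstitial collagenase, CTSK is the lysosomal collagen-degrading protease cathepsin K, DPP4 is a membrane-bound dipeptidyl peptidase and SCG5 is a chaperone of prohormone processing. Fibroblasts that have stopped dividing for good often release a mixture of chemokines, growth factors and proteases known as the senescence-associated secretory phenotype.

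The gate share, which chose the members, ran from 621 to 8731 UMIs per 1000000 UMIs in members, with a median of 1010, and from 0 to 621 in the other cells, with a median of 128. The cut fell inside a continuous range. The 50 members just inside it lay between 621 and 646 UMIs per 1000000, and the 50 cells just outside it between 602 and 621. MMP1 supplied 49.7% of the gate UMIs of members, CTSK 18.7%, SCG5 13.2%, PAPPA 9.55% and DPP4 8.78%. MMP1 alone led the other gate genes in 543 members, CTSK in 199, SCG5 in 139, PAPPA in 68 and DPP4 in 44, while 43 members had no single leader. PAPPA, which gives the gate its name, was thus the leading gene of few members. Across the 10364 cells the shares of any 2 gate genes correlated weakly, with Pearson's r between 0.099 for SCG5 with MMP1 and 0.32 for DPP4 with CTSK, values that sparse counts and shared depth both touch.

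Each gate gene could be read in members chosen by the other 4. The gate was chosen with earlier results of these data known, so these readings describe it and are no test of it. SCG5 stood 3.30-fold higher in cells chosen without it, PAPPA 3.22-fold, MMP1 2.85-fold, CTSK 2.33-fold and DPP4 2.16-fold. MMP1 averaged 245 CPM in the cells so chosen and 85.8 CPM in the rest, where CPM is UMIs per 1000000 UMIs on all genes outside the gate. Leaving out MMP1 changed the membership most, with 62.6% of members kept, against 85.3% to 92.5% when any other gate gene was left out.

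A gene counts as past the fold where its 2 levels differ by 1.5-fold or more, with the higher level at 10 CPM or above and the counting intervals apart. Of 8361 genes tested, 149 were higher in members (1.78%) and 284 lower (3.4%). The counts given below for gene lists can be held against these shares. At 2-fold the counts were 24 higher (0.287%) and 124 lower (1.48%). The members were picked on UMIs of these same cells, so the counts describe how the picked cells differ and carry no rate of error. Over all genes tested the median log2 ratio was 0.03 and 55.0% lay above 0.

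TNFRSF10D, a decoy receptor for the death ligand TRAIL and the only listed marker outside the gate, stood at 68.8 CPM (95% interval 65.7 to 72.0) in members and 44.2 CPM (43.3 to 45.1) in the other cells, a 1.56-fold difference. Among the 50% of cells with the lowest cell cycle share it stood at 75.1 CPM in members and 57.3 CPM in the other cells, 1.31-fold and below the fold. The word secretory in the label was checked against the genes of the secretory route itself. Of 35 genes of ER translocation and secretory transport, 35 were measured at 10 CPM or more, 0 were past the fold in either direction, and the median log2 ratio of members over others was 0.01, against 0.03 for all genes tested.

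Members were slightly deeper than the other cells, with a median of 24490 UMIs and 5232 genes per cell, against 21511.5 UMIs and 4886 genes. Mitochondrial UMIs took a median of 6.57% in members and 6.05% in the other cells, the nuclear RNA MALAT1 3.62% and 2.84%, and ribosomal protein genes 15.6% and 16.8%. The part that these differences play in the results was not tested beyond the weighted comparisons given with the processing. Day 0 shared 64 barcodes with day 3 and 49 with the called cells of day 5, of which 1 and 1 were members.

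The core genes of fibroblasts were measured at like levels in both groups. COL1A1 stood at 1977 CPM in members and 2104 in the other cells, COL1A2 at 1094 and 924, the filament gene VIM at 4931 and 5210, and the growth factor receptor PDGFRA at 53.1 and 54.5. Of 28 core fibroblast genes, 26 reached 10 CPM, with a median log2 ratio of 0.05. In members 2 were past 1.5-fold higher and 0 lower, where 1.78% of all genes tested were higher and 3.4% lower. The 2 were FAP, a serine protease of activated fibroblasts, at 24.8 and 13.8 CPM, and the collagen-binding proteoglycan LUM, at 44.2 and 28.9 CPM. Among the 50% of cells with the lowest cell cycle share FAP stood 1.73-fold higher and LUM 1.46-fold, below the fold. FN1, which encodes fibronectin, stood at 2248 CPM in members and 1558 in the other cells, 1.44-fold and short of the fold used.

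Several markers that define other cell types were at or near 0 in both groups. KRT5, KRT1 and TP63 of keratinocytes, CDH5 of endothelium, DCX and NCAM1 of neurons and SOX10 and TYR of melanocytes had 0 UMIs in either group, and the leukocyte gene PTPRC had 0 CPM in members and 0.00951 CPM in the other cells. Genes on these lists that fibroblasts also use were measured, so the summed level of 10 epithelial genes was 557 CPM in members and 605 CPM in the other cells, that of 16 pan-neuronal genes 76.5 and 100.2 CPM, and that of 8 pericyte and smooth muscle genes 198 and 186 CPM. The sums for 8 endothelial, 8 macrophage and 7 melanocyte genes were 17.7, 43.6 and 52.2 CPM in members and 13.4, 34.8 and 41.0 CPM in the other cells. Each of these lists had 1 gene at 10 CPM or more, namely TEK, CD68 and MITF. Their log2 ratios were 0.44, 0.34 and 0.38, higher in members but short of the fold. Across these lists 1 gene was past the fold upward, DSP, a desmosome protein, at 23.6 CPM (21.8 to 25.5) in members and 8.95 CPM (8.55 to 9.37) in the other cells, and 1 downward, the synaptic vesicle gene SYT1, at 46.6 and 70.8 CPM.

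Beside the gate's own collagenase, the matrix-degrading genes were led by MMP3. MMP3, or stromelysin 1, which cuts many matrix proteins and activates pro-collagenase, stood at 104 CPM (101 to 108) in members and 16.3 CPM (15.8 to 16.9) in the other cells. That is a 6.40-fold difference, and without the 1% of cells richest in MMP3 in each group it was 6.61-fold. MMP3 lies on chromosome 11 (GRCh38, chr11:102835801-102843803, minus strand). Of 35 metalloproteinase, TIMP and plasminogen genes, 21 reached 10 CPM and 18 lay above 0, with a median log2 ratio of 0.24. In members 3 were higher and 0 lower, where 1.78% of all genes tested were higher and 3.4% lower. The others past the fold were SERPINB2, an inhibitor of plasminogen activators, at 101 and 46.9 CPM, and the membrane protease ADAM12, at 10.5 and 6.04 CPM. The gelatinase MMP2 stood at 379 CPM in members and 256 CPM in the other cells, and its membrane-bound activator MMP14 at 228 and 153 CPM, at 1.48-fold and 1.49-fold just short of the fold. The inhibitor TIMP1 stood at 967 and 1006 CPM, at 0.96-fold.

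A pair of membrane peptidases was also higher. MME, or neprilysin, a membrane metallopeptidase that cleaves peptide signals, stood at 58.0 CPM (55.2 to 61.0) in members and 22.3 CPM (21.6 to 22.9) in the other cells, 2.61-fold. With FAP it made up the 2 genes past the fold of 10 tested in a list of 16 peptidases and partners of DPP4. Of the 10, 9 lay above 0, and of all genes tested 1.78% were higher.

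**Figure D1:**
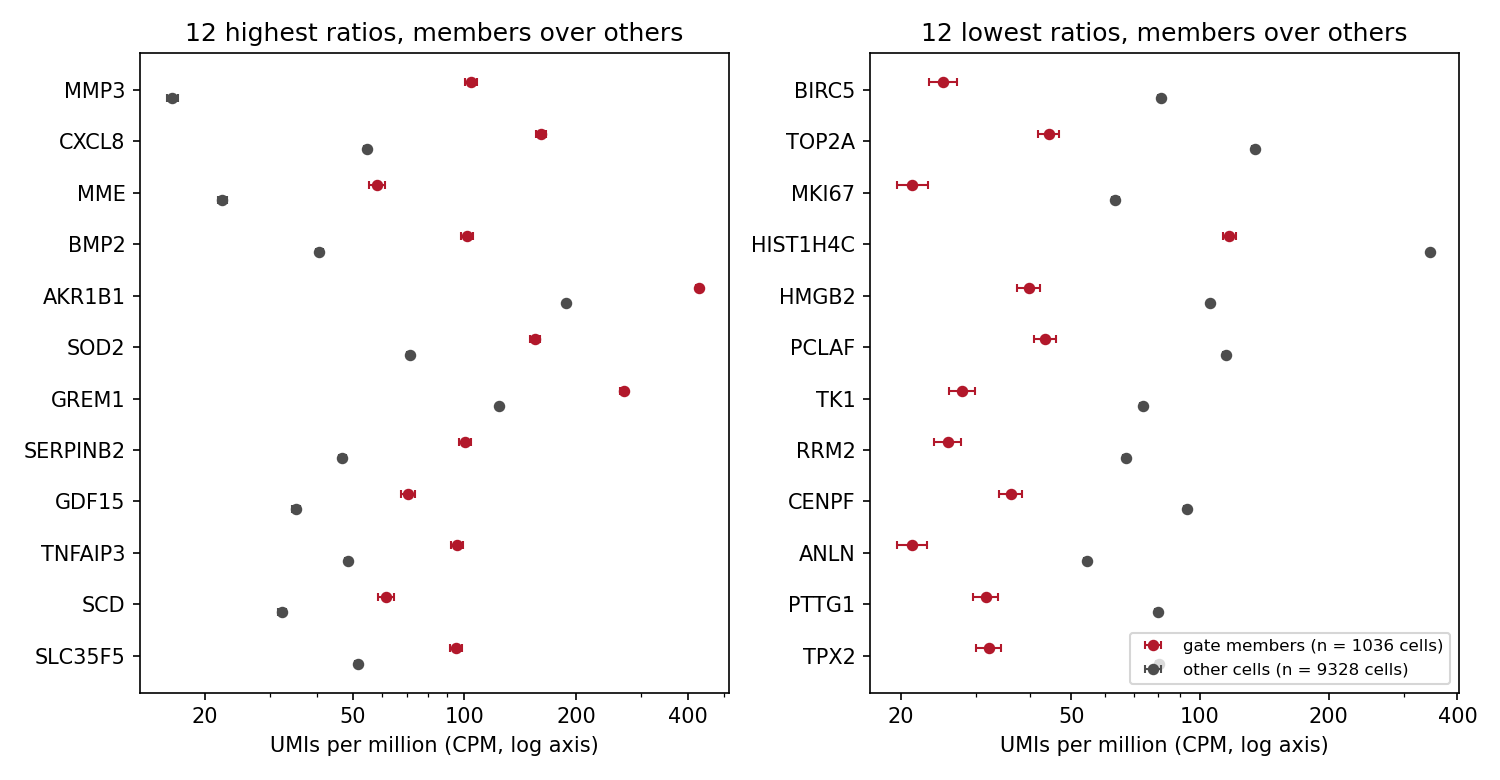
Pooled levels in CPM on a log axis in gate members (red, 1036 cells) and other cells (grey, 9328 cells), for the 12 genes with the highest (left) and the 12 with the lowest (right) ratio of members over others among genes of at least 50 CPM in either group, with exact Poisson 95% intervals. MMP3 shows the widest gap on the left, 104 against 16.3 CPM, and all genes on the right except HIST1H4C lie under 50 CPM in members.

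Part of the senescence-associated secreted factors were higher in members. CXCL8, the neutrophil chemokine interleukin 8, stood at 161 CPM (157 to 166) in members and 54.6 CPM (53.7 to 55.7) in the other cells, 2.95-fold. Of 32 senescence-associated secreted factors, 22 reached 10 CPM, with a median log2 ratio of 0.26. In members 7 of the 22 were higher and 0 lower, where 1.78% of all genes tested were higher and 3.4% lower. Beside CXCL8 these were the chemokines CXCL1 (14.0 and 5.95 CPM) and CXCL2 (28.5 and 15.6 CPM), PTGS2, which makes prostaglandin precursors (31.4 and 11.7 CPM), the growth factor EREG (90.0 and 59.0 CPM), the stress cytokine GDF15 (70.6 and 35.1 CPM) and the cytokine LIF (125 and 79.4 CPM). The list was not uniform, since the growth factor AREG stood at 423 CPM in members and 528 CPM in the other cells, the growth factor HGF at 67.0 and 97.0 CPM and the cytokine IL11 at 233 and 275 CPM, and 16 of the 22 lay above 0.

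Several of these genes were concentrated in few members. The 1% of members richest in CXCL8 held 35.4% of the members' CXCL8 UMIs, and the shares were 41.6% for CXCL1, 37.4% for GDF15 and 24.4% for PTGS2, but 6.45% for AKR1B1 and 4.71% for PSAP. Without the richest 1% of each group the ratios were 3.28-fold for CXCL8, 4.51-fold for CXCL1 and 2.91-fold for PTGS2, and GDF15 was at 1.62-fold in place of 2.01-fold. That comparison was chosen after the data were seen.

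Some NF-kB targets were higher in members. SOD2, the mitochondrial superoxide dismutase, stood at 155 CPM (151 to 160) in members and 71.2 CPM (70.0 to 72.3) in the other cells, 2.18-fold. TNFAIP3, an inhibitor of NF-kB signalling, stood at 95.7 and 48.5 CPM and TNFAIP2 at 25.7 and 11.4 CPM. With CXCL8 these made 4 of 13 tested NF-kB targets higher, where 1.78% of all genes tested were higher. Of the 13, 0 were lower and 11 lay above 0. NFKBIA, the inhibitor that NF-kB itself induces, stood at 351 CPM in members and 342 CPM in the other cells. AKR1B1, an aldose reductase, stood at 429 CPM (421 to 437) in members and 188 CPM (186 to 190) in the other cells, 2.28-fold. Of 28 tested immediate early genes 1 was higher (EGR1, 33.5 and 21.9 CPM), and FOSB stood at 283 and 268 CPM.

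A few genes of BMP and TGF-beta signalling were higher in members. BMP2, a bone morphogenetic protein, stood at 102 CPM (98.1 to 106) in members and 40.6 CPM (39.7 to 41.5) in the other cells, 2.51-fold. GREM1, a secreted antagonist of BMP2, was higher in the same cells, at 269 CPM (263 to 275) and 124 CPM (123 to 126), 2.16-fold. These were the 2 higher of 17 tested WNT and BMP genes, with 0 lower, where 1.78% of all genes tested were higher. ID1, a target gene of BMP signalling, stood at 419.5 CPM in members and 588 CPM in the other cells, 0.71-fold. TGFB2, a ligand of the TGF-beta receptors, stood at 15.7 and 8.44 CPM and was the 1 gene past the fold of 18 tested TGF-beta targets, of which 16 lay above 0, with a median log2 ratio of 0.31.

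A minority of the tested lysosomal genes was past the fold, most of them higher in members. Of 30 cathepsin and lysosome genes outside the gate, 23 reached 10 CPM, 6 were higher in members, 1 was lower and 21 lay above 0, where 1.78% of all genes tested were higher and 3.4% lower. The median log2 ratio of 0.43 was the highest of the 31 lists with at least 7 genes tested. PSAP, the precursor of the saposins that help degrade sphingolipids, stood at 249.5 CPM (244 to 256) in members and 151 CPM (150 to 153) in the other cells, the lysosomal peptidase TPP1 at 106 and 64.7 CPM and the acid ceramidase ASAH1 at 104 and 63.6 CPM. CTSO and the cholesterol transporter NPC1 were also among the higher genes. The lower gene was CTSC, a cathepsin that activates serine proteases, at 269.6 CPM (264 to 276) in members and 437 CPM (434 to 439) in the other cells, 0.62-fold. Cathepsin L and the inhibitors CST3 and CSTB did not differ past the fold, with CTSL at 105 and 105 CPM, CST3 at 351 and 354 CPM and CSTB at 634 and 634 CPM.

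None of the measured genes of PAPPA's own axis outside the gate was past the fold. IGFBP4, the binding protein that PAPPA cleaves, stood at 522 CPM (514 to 531) in members and 466 CPM (463 to 469) in the other cells, and IGFBP5, another substrate, at 515 and 599 CPM. STC1, a secreted inhibitor of PAPPA, stood at 1336 and 1096 CPM, and its relative STC2 at 5.75 and 4.53 CPM. The receptor IGF1R stood at 28.7 and 23.0 CPM. Of 17 genes of the axis outside the gate, 10 reached 10 CPM, 0 were past the fold in either direction and 8 lay above 0. The ligands were at the limit of detection, with IGF2 at 0 UMIs in both groups and IGF1 at 0 UMIs in members and 0.0523 CPM in the other cells. For scale, 3 UMIs, the floor used for ratios, came to 0.109 CPM in members and 0.0143 CPM in the other cells.

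**Figure D2:**
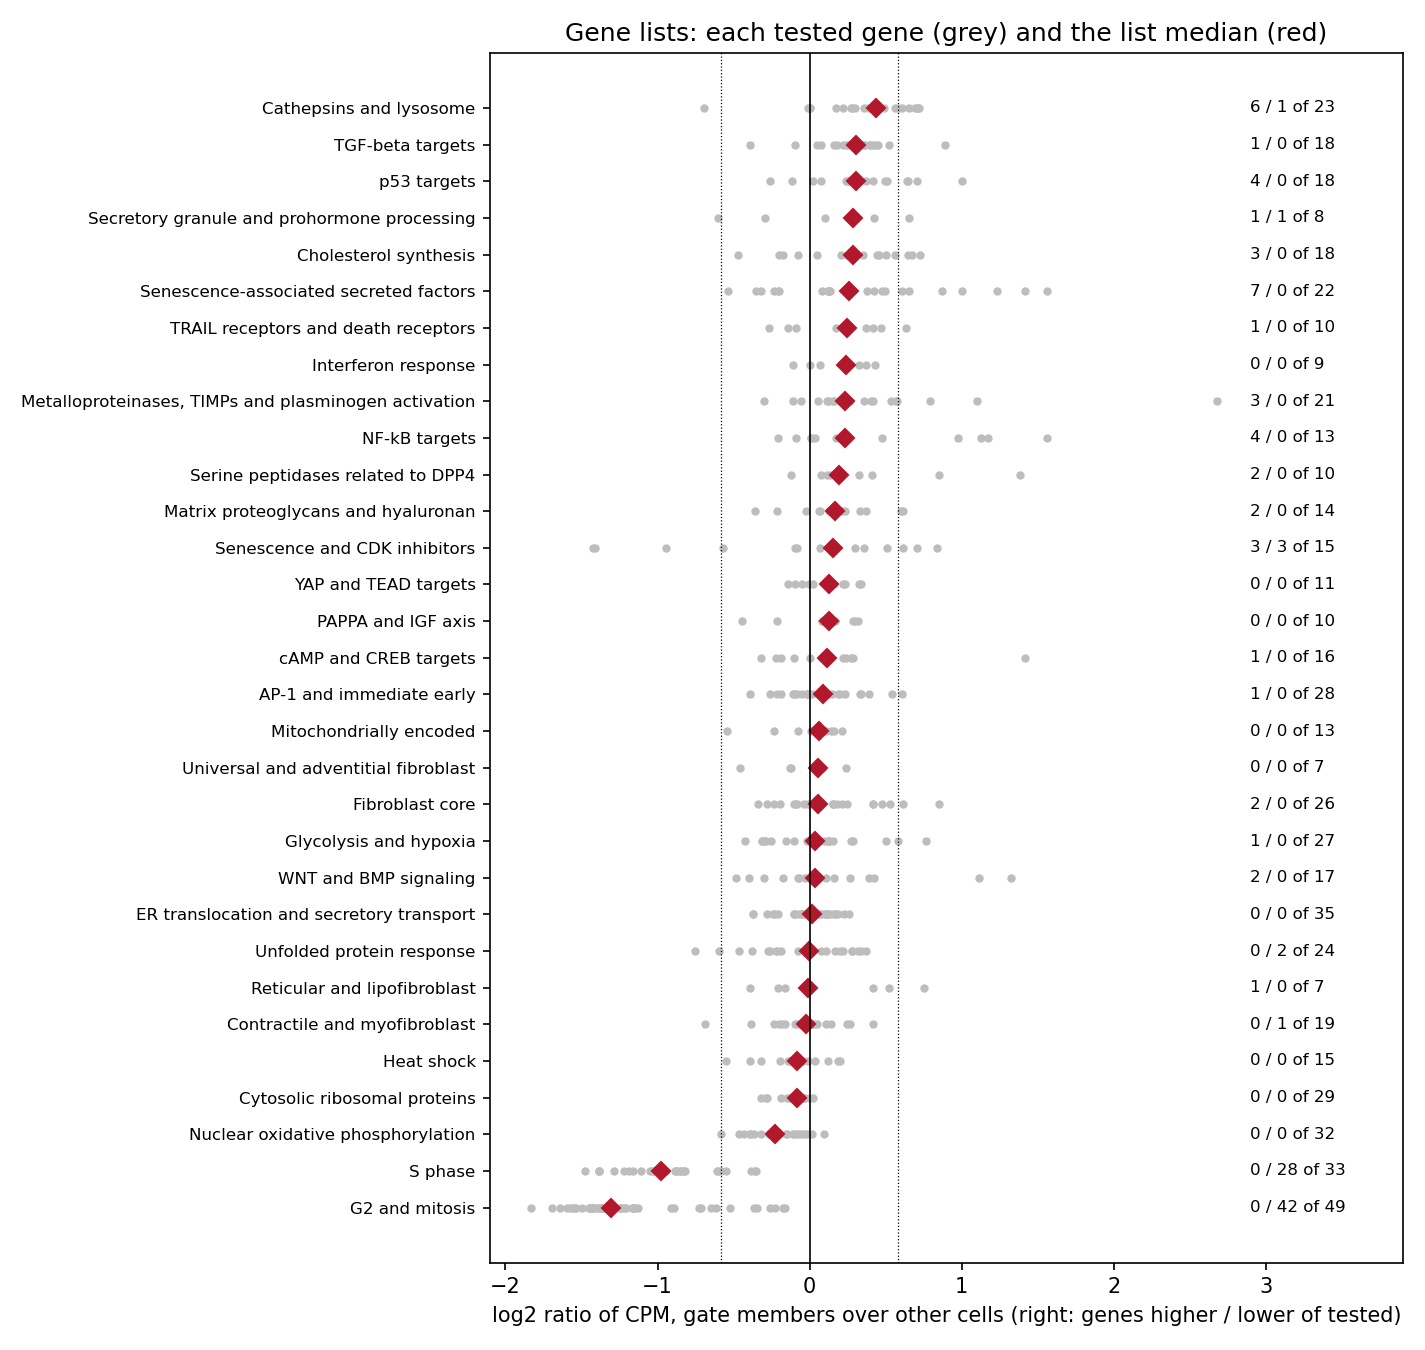
Log2 ratio of pooled CPM, gate members over other cells, for each tested gene (grey) of 31 lists with at least 7 genes tested, with the list median (red) and, at the right, the number of genes higher and lower of those tested. Dotted lines mark 1.5-fold, and the S phase and mitosis lists stand apart at medians of -0.98 and -1.30 while all other list medians lie between -0.23 and 0.43.

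Of the lists, those of the cell cycle held the most lower genes. Of 43 S phase genes, 33 reached 10 CPM, 28 were lower in members and 0 higher, with a median log2 ratio of -0.98, where 3.4% of all genes tested were lower. Of 54 genes of G2 and mitosis, 49 reached 10 CPM, 42 were lower and 0 higher, with a median of -1.30. BIRC5, which guides chromosome segregation, stood at 25.1 CPM (23.2 to 27.0) in members and 81.0 CPM (79.7 to 82.2) in the other cells, 0.31-fold. The proliferation marker MKI67 stood at 21.3 CPM (19.6 to 23.1) and 63.4 CPM (62.4 to 64.5), the topoisomerase TOP2A at 44.3 and 134 CPM, the ribonucleotide reductase subunit RRM2 at 25.7 and 67.3 CPM and the histone gene HIST1H4C at 117 and 346 CPM. UBE2C, the ubiquitin-conjugating enzyme of the anaphase-promoting complex, had the lowest ratio of any named gene, with 13.8 and 49.2 CPM and a log2 ratio of -1.83.

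Members were thus rarely found among strongly cycling cells. Of members, 2.61% (27 cells, exact binomial 95% interval 1.72% to 3.77%) fell in the 10% of cells with the highest cell cycle share, against 10.8% (10.2% to 11.5%) of the other cells. Of members, 70.9% lay in the 50% of cells with the lowest cell cycle share, against 47.7% of the other cells. The comparison was repeated within that set (735 members and 4447 other cells), as chosen once the data were known, and 99 genes were higher and 25 lower. Of these, 86 and 21 were among the 149 and 284. The drop in the lower count follows in part from the choice of the set itself, which evens out the cell cycle genes that chose it. MMP3 stood at 108 and 18.0 CPM there (5.99-fold), CXCL8 at 154 and 41.4 CPM (3.71-fold) and AKR1B1 at 443 and 206 CPM (2.15-fold), while TOP2A stood at 5.27 and 5.11 CPM and GDF15, at 71.1 and 48.7 CPM, was at 1.46-fold, below the fold. Of the 36 named genes higher in members, 26 were at the fold or above in that set, and the 10 below it, TNFRSF10D, LUM, TPP1, CPE, SDC2 and HMGCS1 among them, were at 1.31-fold or more.

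The arrest markers divided. CDKN1A, the p21 inhibitor of cyclin-dependent kinases, stood at 794 CPM (784 to 805) in members and 558 CPM (555 to 561) in the other cells, 1.42-fold and short of the fold. Of 18 tested p53 targets 4 were higher and 0 lower, where 1.78% of all genes tested were higher and 3.4% lower. The 4 were GDF15, TP53INP1 (29.2 and 17.9 CPM), RRM2B (63.0 and 40.3 CPM) and the antiproliferative gene BTG2 (20.3 and 13.0 CPM). Of the 18, 16 lay above 0, with a median log2 ratio of 0.30. In the low cell cycle set TP53INP1, RRM2B, BTG2 and GDF15 were at 1.35-fold, 1.38-fold, 1.35-fold and 1.46-fold, all 4 below the fold. CDKN1A stood at 877 CPM in members and 704 CPM in the other cells of that set, 1.25-fold. Of 15 senescence and cyclin-dependent kinase genes, 3 were higher (CDKN2B, CDKN1C and CCND2) and 3 lower (CDKN2C, HMGB2 and the nuclear lamin LMNB1). LMNB1 stood at 4.73 and 12.7 CPM, but at 0.904 and 0.892 CPM within the low cell cycle set, and CDKN2A, the p16 gene, stood at 19.5 and 18.6 CPM.

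Promoter sequences are shown for 5 genes that carry the contrast, the chemokine and NF-kB inhibitor genes, a plasminogen activator inhibitor and a pair of cell cycle genes. Each line gives the 250 bases before the annotated start, from RefSeq (GRCh38.p14), 5′ to 3′ on the gene's strand, with the named motif in capitals as matched on either strand.
CXCL8: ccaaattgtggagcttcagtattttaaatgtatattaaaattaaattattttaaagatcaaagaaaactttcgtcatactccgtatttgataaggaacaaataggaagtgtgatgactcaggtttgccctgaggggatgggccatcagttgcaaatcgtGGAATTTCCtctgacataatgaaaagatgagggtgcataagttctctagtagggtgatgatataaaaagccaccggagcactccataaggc
TNFAIP3: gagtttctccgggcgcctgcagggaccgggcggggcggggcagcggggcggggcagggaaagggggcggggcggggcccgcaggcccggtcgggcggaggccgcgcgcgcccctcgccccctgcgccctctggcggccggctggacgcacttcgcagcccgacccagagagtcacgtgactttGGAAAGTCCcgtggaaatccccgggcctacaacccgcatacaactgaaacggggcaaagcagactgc
SERPINB2: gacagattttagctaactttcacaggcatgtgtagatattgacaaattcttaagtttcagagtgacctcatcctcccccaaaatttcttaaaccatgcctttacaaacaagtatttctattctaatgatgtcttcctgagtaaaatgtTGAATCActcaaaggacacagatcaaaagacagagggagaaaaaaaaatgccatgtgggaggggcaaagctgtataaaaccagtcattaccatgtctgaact
MKI67: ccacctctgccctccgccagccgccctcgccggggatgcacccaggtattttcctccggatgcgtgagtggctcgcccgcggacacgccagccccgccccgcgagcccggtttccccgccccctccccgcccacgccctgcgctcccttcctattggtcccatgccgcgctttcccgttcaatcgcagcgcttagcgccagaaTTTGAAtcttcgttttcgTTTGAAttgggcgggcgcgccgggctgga
TOP2A: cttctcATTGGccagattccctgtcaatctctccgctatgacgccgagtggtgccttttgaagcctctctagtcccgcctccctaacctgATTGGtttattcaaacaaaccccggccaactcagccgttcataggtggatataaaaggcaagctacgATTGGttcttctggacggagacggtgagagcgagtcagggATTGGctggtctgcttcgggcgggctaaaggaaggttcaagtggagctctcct
CXCL8 (chr4:73740319-73740568, plus strand) and TNFAIP3 (chr6:137867009-137867258, plus strand) are marked for the NF-kB letters GGANTTNCC, 91 and 67 bases before the start. SERPINB2 (chr18:63887455-63887704, plus strand) is marked for the AP-1 letters TGANTCA, 102 bases before it. MKI67 (chr10:128126424-128126673, minus strand) is marked for TTTGAA, the letters of the cell cycle homology region, at 47 and 29 bases, and TOP2A (chr17:40417897-40418146, minus strand) for 4 matches to CCAAT, all read on the opposite strand as ATTGG.

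Over windows of 250 bases before to 50 after the start, 107 of the 149 higher genes and 226 of the 284 lower genes had a promoter in the table, as did 6700 of the genes tested. TTTGAA was found in 33.2% of the lower genes and 8.41% of the higher genes, against 9.15% of all tested genes and 15.4% of all 27305 promoters. CCAAT was found in 57.1% of the lower genes and 39.3% of the higher genes, against 36.4% of tested genes and 35.7% of all promoters. GGANTTNCC was found in 9.35% of the higher genes (10 genes, CXCL8, CXCL1, CXCL2 and TNFAIP3 among them) and 4.42% of the lower genes, against 4.40% of tested genes and 4.23% of all promoters. TGANTCA was found in 7.48% of the higher genes and 2.65% of the lower genes, against 4.27% of tested genes and 7.76% of all promoters. TCACGTGA, the lysosomal CLEAR letters, was found in 0.935% of the higher genes and 2.65% of the lower ones, against 2.43% of tested genes and 1.04% of all promoters, and in 3 of 18 lysosome list genes. No motif's letters contain those of another, and a match describes these windows only.

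Outside cholesterol synthesis, few tested genes of the contractile, metabolic and stress lists were past the fold. Of 19 tested contractile genes 1 was lower, the smooth muscle actin ACTG2 (22.4 and 36.1 CPM), and TAGLN stood at 1044 and 1361 CPM, 0.77-fold. Of 32 nuclear oxidative phosphorylation genes, 0 were past the fold and 2 lay above 0, with a median log2 ratio of -0.23. Of 18 tested cholesterol synthesis genes, 3 were higher (MSMO1, DHCR7 and HMGCS1) and 0 lower, where 1.78% of all genes tested were higher. Of the 18, 14 lay above 0, with a median log2 ratio of 0.29. SCD, the desaturase that makes oleate, stood at 61.5 and 32.2 CPM. Heat shock genes had 0 of 15 past the fold. Of 24 tested genes of the unfolded protein response 2 were lower, ASNS and MANF, and 0 higher, where 3.4% of all genes tested were lower.

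**Figure D3:**
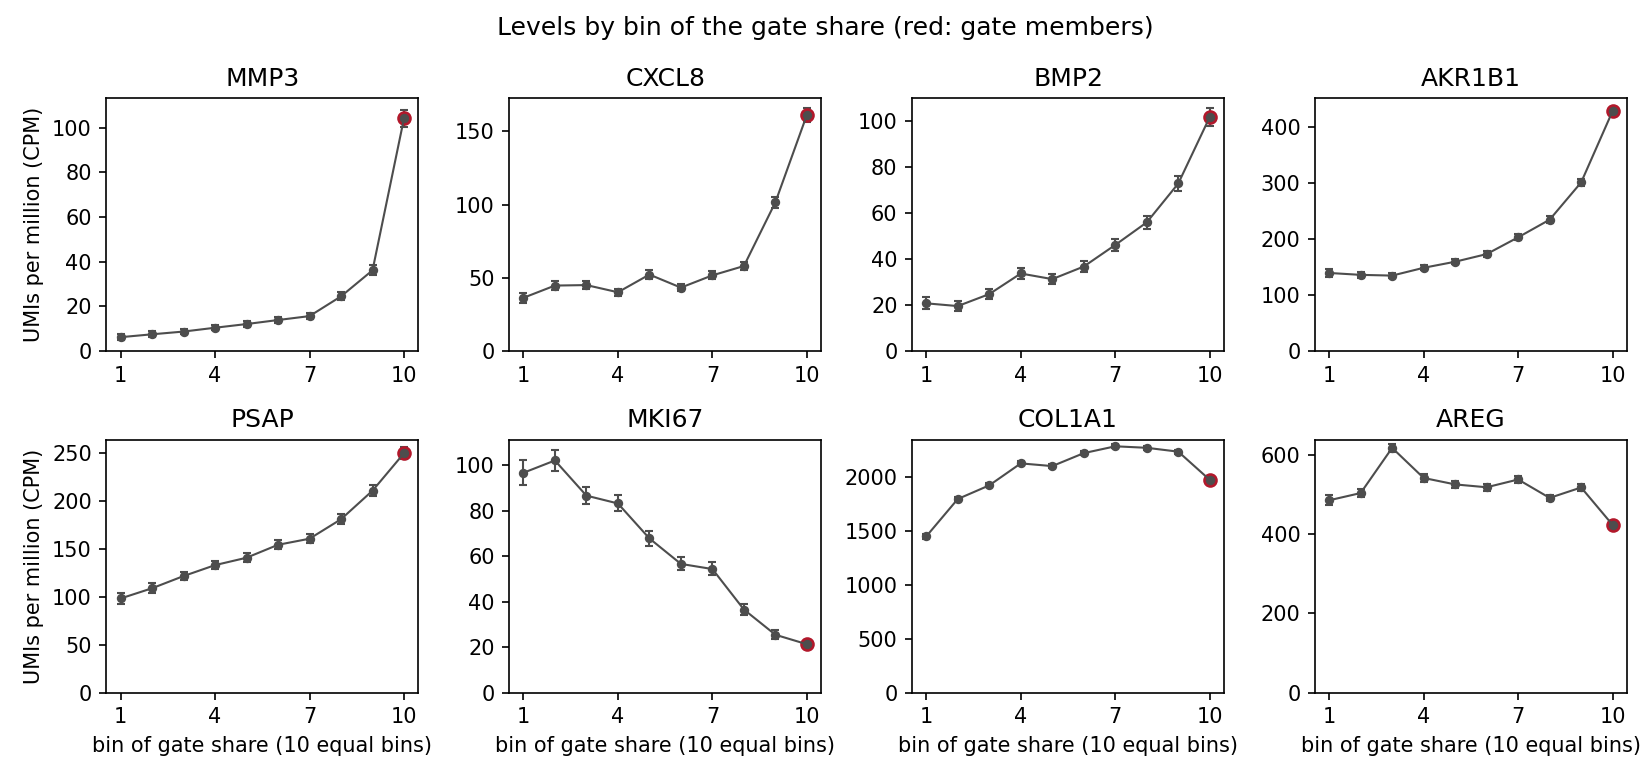
Pooled CPM with exact Poisson 95% intervals in 10 equal bins of the 10364 day 0 cells ordered by gate share, bin 10 (red) being the gate members. MMP3 climbs mainly in the last bins, PSAP climbs and MKI67 declines from bin 2 on, and COL1A1 peaks at 2290 CPM in bin 7.

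Some of the differences were graded along the gate share, and others were not. The 10364 cells were ordered by gate share and cut into 10 equal bins, of which bin 10 holds the members. From bin 1 to bin 10, PSAP stood at 98.1, 109, 121, 133, 141, 154, 160.4, 181, 210.4 and 249.5 CPM. MMP3 stood at 6.19 CPM in bin 1, 15.6 CPM in bin 7, 36.2 CPM in bin 9 and 104 CPM in bin 10. MKI67 stood at 96.7, 102, 86.7, 83.2, 67.8, 56.6, 54.4, 36.5, 25.4 and 21.3 CPM from bin 1 to bin 10. PSAP thus differed stepwise, MMP3 mostly at the top, and MKI67 was lower in each bin from bin 3 on than in the one before. CXCL8 lay between 36.3 and 58.0 CPM in bins 1 to 8, then at 102 and 161 CPM. AREG showed no such order, with 485 CPM in bin 1, 617 CPM in bin 3 and 423 CPM in bin 10, and COL1A1 stood at 1452 CPM in bin 1, 2290 CPM in bin 7 and 1977 CPM in bin 10. The lowest bin is not a fair baseline, because its cells had a median of 9928 UMIs and 1.28% MALAT1, against 24490 UMIs and 3.62% in members, and a low depth makes a gate share of 0 more likely. Bins 4 to 10 had medians between 22691 and 24990.5 UMIs.

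Members led by different gate genes were not alike. CXCL8 stood at 90.1 CPM (85.4 to 95.1) in the 543 members led by MMP1, 177 CPM in those led by CTSK, 204 CPM with SCG5, 358 CPM with PAPPA and 361 CPM with DPP4. The value for CTSK rests on a single cell that held 51.4% of the CXCL8 UMIs of its 199 cells. AKR1B1, where no cell held more than 7.64% of a subset's UMIs, stood at 350.2 CPM (341 to 360) in members led by MMP1, 525 CPM (506 to 545) with CTSK, 475 CPM (452 to 498) with SCG5, 649 CPM (613 to 685) with PAPPA and 484 CPM (441 to 530) with DPP4. All 5 subsets lay above the 188 CPM of the other cells. The 68 members led by PAPPA had SOD2 at 342 CPM (317 to 369), CDKN1A at 1137 CPM (1091 to 1185) and MKI67 at 6.09 CPM (3.15 to 10.6), against 122 CPM, 720.3 CPM and 28.6 CPM in those led by MMP1. Their GDF15 level of 247 CPM rests on few cells, since a single cell held 56.8% of it. A single cell also held 50% of the MKI67 UMIs of this subset. MMP3 was higher in the subsets led by MMP1 (122 CPM), PAPPA (115 CPM) and DPP4 (114 CPM) than in those led by CTSK (69.6 CPM) or SCG5 (76.3 CPM), though 32.2% of the UMIs in the PAPPA subset came from a single cell. Median depth ran from 21692.5 UMIs in the subset led by DPP4 to 28410 UMIs in that led by PAPPA.

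**Figure D4:**
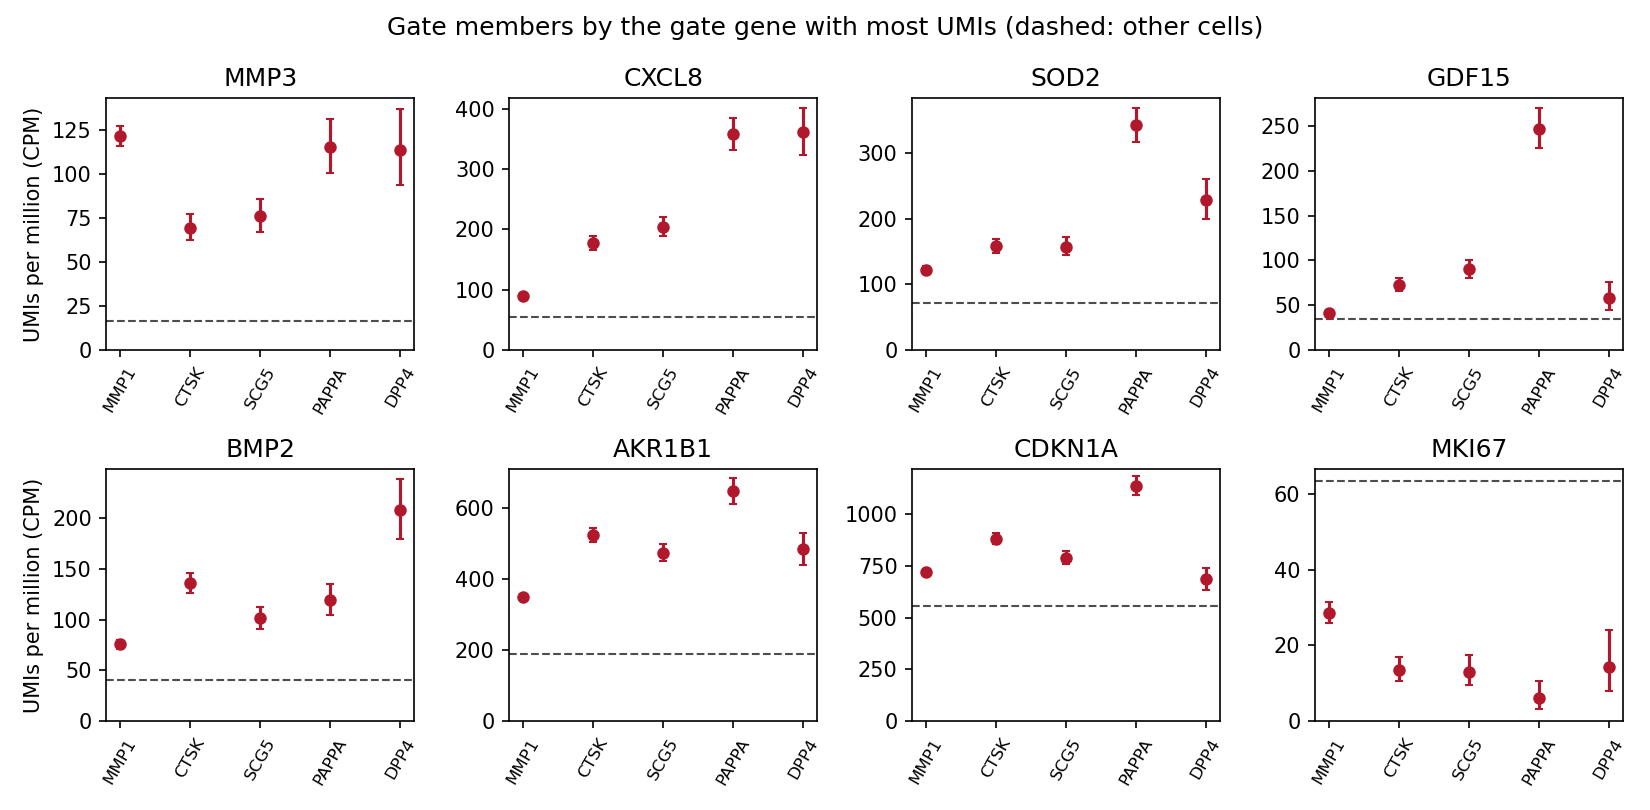
Pooled CPM with exact Poisson 95% intervals in gate members split by the gate gene with the most UMIs (543 led by MMP1, 199 by CTSK, 139 by SCG5, 68 by PAPPA and 44 by DPP4), with the level of the other 9328 cells as a dashed line. Members led by MMP1 have the lowest level of CXCL8, AKR1B1 and BMP2 and the highest of MKI67, and single cells supply 51.4% of CXCL8 in the CTSK subset and 56.8% of GDF15 in the PAPPA subset.

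Other extremes of the same library overlapped unevenly with the gate. Of members, 26.0% (23.3% to 28.7%) were among the 10% of cells highest in the lysosome list, against 8.22% (7.67% to 8.80%) of the other cells. For the 10% highest in CXCL8, CXCL1, CXCL2, CXCL3 and IL6 the shares were 19.9% (17.5% to 22.4%) and 8.90% (8.33% to 9.49%). For the 10% highest in contractile genes they were 6.08% (4.70% to 7.71%) and 10.4% (9.82% to 11.1%). The 10% highest in GDF15 and AREG held 9.07% of members and 10.1% of the other cells, and that highest in immediate early and heat shock genes 10.0% and 9.99%, so intervals overlapped for these pairs.

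The same gate was applied to day 3 cells with at least 1000 UMIs, which gave 845 members and 7610 other cells. In raw counts a median day 3 member held 6 gate UMIs and a median other cell 3, against 26 and 3 at day 0. These counts do not compare gate levels between the days, since median member depth was 1271 UMIs at day 3 and 24490 at day 0. By gate share, the lowest day 3 member stood at 3802 on the scale used for day 0. That is above the day 0 cut of 621 and the day 0 member median of 1010. How well the gate separated cells on each day was not tested. The makeup of the gate differed from that given above for day 0. MMP1 supplied 60.1% of the gate UMIs of day 3 members, PAPPA 32.0%, DPP4 4.64%, CTSK 2.79% and SCG5 0.51%. Day 3 members were shallower than the other day 3 cells, with a median of 1271 UMIs against 1630, where day 0 members were deeper. Of 10118 genes tested at day 3, 133 were higher in members (1.31%) and 141 lower (1.39%). Of the 149 genes higher at day 0, 121 were tested at day 3, 4 were again higher (2.68% of the day 0 genes and 3.01% of the day 3 genes) and 77 lay above 0, where 50.1% of all tested genes lay. The 4 were MMP3, LUM, the lipid carrier APOE and the iron reductase CYBRD1. The RNA make-up of day 3 members differed too, with MALAT1 at 0.84-fold, VIM at 1.36-fold, RPL19 at 1.45-fold and MT-CO2 at 1.46-fold. Median log2 ratios at day 3 were 0.45 for ribosomal protein genes, 0.42 for nuclear oxidative phosphorylation and 0.30 for core fibroblast genes. The part of these shifts in the 4 repeated genes was not tested. Of the 284 lower genes, 211 were tested and 11 were again lower, BIRC5 among them (3.87% of the day 0 genes and 7.80% of the day 3 genes). Of the 211, 4 were higher and 123 lay below 0. MMP3 stood at 1153 CPM (1095 to 1213) in day 3 members and 710.1 CPM (697 to 724) in the other day 3 cells, 1.62-fold, and CXCL8 at 591 and 498 CPM, 1.19-fold. Levels per day were also taken over the cells kept in each library, 11454 of 11488 barcodes at day 3 and 9219 of 2037119 at day 5. The floors for keeping a barcode were 500 UMIs and 300 genes, and day 5 also had a threshold of 2154 UMIs. This day 3 set is wider than the set of at least 1000 UMIs used for the gate. Over the kept cells MMP3 stood at 808 CPM at day 3 and 0.12 CPM at day 5, and CXCL8 at 522 and 0.058 CPM. Depth, MALAT1 share and the stated preparation differ between the libraries, and their part in these levels cannot be told apart from the day.

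**Figure D5:**
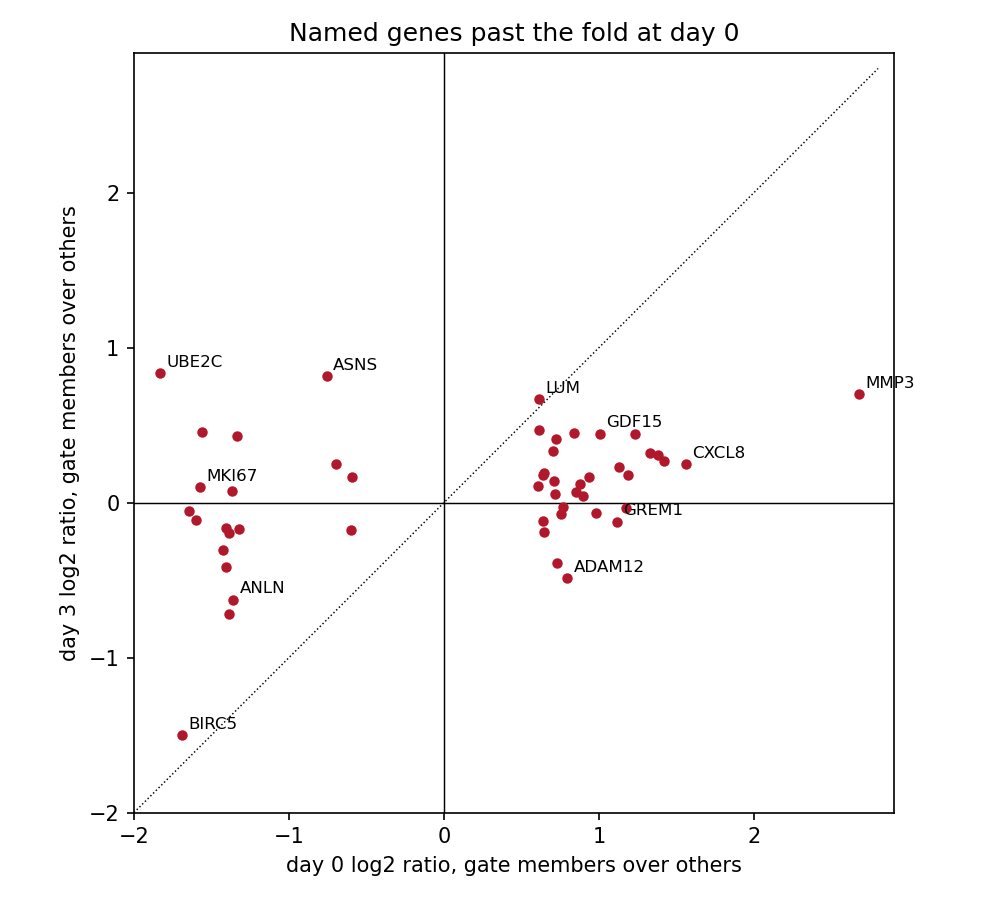
Log2 ratio of pooled CPM, gate members over other cells, at day 3 (vertical) against day 0 (horizontal) for the 51 named genes past the fold at day 0 and tested at day 3, with the dotted line marking equal ratios. Signs are alike for 34 of the 51, and day 3 ratios lie between -1.50 for BIRC5 and 0.83 for UBE2C, nearer to 0 than at day 0 for 49.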

How the data were processed

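The deposited values are UMI counts per gene and barcode, without normalization, per the file headers and the values. Per the submitters' processing notes Cell Ranger 4.0.0 and GRCh38 were used. The use of introns and of strand in counting is not given in the sources used. For days 0 and 3 the protocols in the labels speak of nuclei and of an ATAC kit, while the files hold gene counts. Members and other cells were chosen by the limits in the opening, and their summed UMIs outside the 5 gate genes came to CPM with exact Poisson 95% intervals (scipy 1.17.1, numpy 2.4.6, Python 3.11.15). Depth was 27528902 UMIs in members and 210331728 in the other cells. For ratios a group under 3 UMIs was set at 3 UMIs, or 0.109 CPM in members. Shares of cells have exact binomial (Clopper-Pearson) intervals. No doublet caller was run, and doublets were kept and addressed by leaving out the deepest barcodes.

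Named genes were the 12 highest and 12 lowest ratios among genes of at least 50 CPM with separate intervals, leaving out mitochondrial, ribosomal protein and unnamed genes, then up to 4 genes with the largest ratio in each of 39 lists, and 17 others. Other members of a list appear beside its counts, and the genes that repeat at day 3 were picked after their values were seen. The members and the lists were chosen with earlier results of these data known. Alternatives covered the size and limits of the gate, each gate gene, depth, MALAT1, cell cycle, scaling and thresholds. The calling steps were tested on simulated data.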

Additional observations from a re-analysis of the deposited data

Results flagged for a closer look

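UBE2C, which loads ubiquitin for the anaphase-promoting complex, moved opposite ways under the same gate in the libraries of day 0 and day 3. At day 3 it stood at 30.6 CPM (21.7 to 41.8) in the 845 members and 17.2 CPM (15.1 to 19.4) in the 7610 other cells, a log2 ratio of 0.83, from 39 and 257 UMIs. At day 0 it stood at 13.8 and 49.2 CPM, a log2 ratio of -1.83. The difference between the days was not tested, since each day is 1 library. CENPH, DGKI, PIK3R3, SDHAF3 and UBE2T were also past the fold in opposite directions on the 2 days. Of 211 day 0 lower genes tested at day 3, 4 were higher there, where 1.31% of all day 3 genes were higher. Of 121 day 0 higher genes tested, 2 were lower, where 1.39% of all were lower. Of 49 genes of G2 and mitosis tested at day 3, 1 was higher and 4 lower, with a median log2 ratio of -0.16. MKI67 at day 3 stood at 40.8 CPM in members and 38.0 CPM in the other cells.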

How the results depend on the processing

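The number of genes higher in members, 149 in the report, was 86 with the gate set on barcodes thinned to 3000 UMIs, 99 with the other cells weighted to the members' depth and 89 when weighted to their MALAT1 share, of which 85, 98 and 88 were among the 149. It was 287 with MMP1 out of the gate and 285 with the mean of per-barcode CPM. At 2-fold 24 genes were higher and 124 lower, at a minimum of 50 CPM 44 and 67, and at 1 CPM 466 and 509. The number lower, 284 in the report, was 176 without the 10% of barcodes highest in cell cycle genes. The next 2 settings were added after the data were seen. In the low cell cycle set 99 were higher and 25 lower, and the log2 ratios of TOP2A, CENPF, TPX2, LMNB1, CDC6 and NUF2 turned to 0.045, 0.0025, 0.0066, 0.018, 0.079 and 0.0056. Without members led by MMP1, 378 were higher and 482 lower. The day 3 count of 133 higher genes was 252 at 500 UMIs. Of the 60 named genes past the fold, the other 54 kept their direction under all 21 alternatives run for them. Direction alone was counted there, not the size of the ratio. In the low cell cycle set RRM2, ANLN and MKI67 kept it at 0.998-fold, 0.976-fold and 0.968-fold, while TK1 stood at 0.619-fold. The cause of these shifts was not tested. No paired analysis was possible because each day is 1 library. Counting error limits genes near 10 CPM most.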

Other observations

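Some inflammatory genes below the 10 CPM minimum, chosen after their values were seen, were also higher in members, and few cells carried them. Of the senescence-associated secreted factors with at least 3 UMIs below the minimum, the level was higher in members for 8 and lower for 2. The same counts were 2 and 2 for NF-kB targets and 6 and 6 for interferon response genes. The cytokine IL1B stood at 4.26 CPM (3.52 to 5.10) in members, from 117 UMIs in 42 cells, and 0.514 CPM (0.421 to 0.620) in the other cells, from 108 UMIs in 75 cells. Of the members' IL1B UMIs, 49.6% lay in 5 cells. The chemokine CXCL5 stood at 4.95 CPM (4.15 to 5.85) in members, from 57 cells, and 1.06 CPM (0.926 to 1.21) in the other cells, from 155 cells. CXCL6 stood at 1.82 and 0.347 CPM, with 64.0% of the members' UMIs in 5 cells, and CCL20 at 0.727 and 0.124 CPM, with 90.0% in 5 cells. The adhesion molecule ICAM1 was less concentrated, at 3.35 CPM (2.70 to 4.10) in members from 62 cells and 1.48 CPM (1.32 to 1.66) in the other cells from 223 cells.

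Of the metalloproteinase, TIMP and plasminogen genes, 10 had at least 3 UMIs and lay below the minimum, and the level was higher in members for 8 and lower for 2. The pair given here was chosen after the values were seen. MMP10, or stromelysin 2, stood at 3.42 CPM (2.76 to 4.18) in members, from 94 UMIs in 65 cells, and 1.32 CPM (1.17 to 1.49) in the other cells, from 278 UMIs in 233 cells. MMP12, the macrophage elastase, stood at 0.764 CPM (0.473 to 1.17) in members, from 21 UMIs, and 0.114 CPM (0.0731 to 0.170) in the other cells, from 24 UMIs. At day 3, where more genes reached the minimum, MMP10, MMP3 and ADAMTS2 were the 3 higher of 24 tested genes of this list. Of all genes tested at day 3, 1.31% were higher.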
